A study of Mus musculus with 8 samples.

Results

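The 6 genes described here belong to MHC class I antigen presentation and were followed in the epidermis of mice: the classical heavy chain genes H2-K1 and H2-D1, the light chain gene B2m, and the non-classical heavy chain genes H2-Q4, H2-T23 and H2-M3. They were looked up by symbol among the 51912 gene identifiers of the count tables, and all 6 were present and passed the filter on low counts. Relative to A20WT epidermis, 4 of the 6 rose in A20KIKO epidermis: H2-Q4 2.30-fold, B2m 2.19-fold, H2-M3 1.95-fold and H2-K1 1.71-fold. The separate value of H2-Q4 is uncertain, since part of its sequence is shared with other genes. The fitted changes of H2-T23 (1.49-fold) and H2-D1 (1.47-fold) did not pass the test.

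RNA was sequenced from ear epidermal sheets of 8 mice, 4 labelled A20KIKO and 4 labelled A20WT, with 1 library per mouse. Every mouse carried the A20F/F alleles, in which Tnfaip3 (the gene for A20, a ubiquitin-editing inhibitor of NF-kB signalling) can be removed by Cre recombinase. A20KIKO mice were Krt5-CreERT2+, so that Cre was made under the promoter of the basal keratinocyte gene Krt5 and became active with tamoxifen, and A20WT mice were Krt5-CreERT2-. All mice were 8 weeks old, received 1 mg tamoxifen into the peritoneum on each of 2 days in a row, and were killed on day 7 after the first injection. Both groups therefore had the tamoxifen and the A20F/F alleles, and they differed by label in the Cre transgene. A Krt5-driven Cre acts in keratinocytes, while the sheets also hold Langerhans cells, epidermal T cells and melanocytes, so a level in these bulk samples is a mixture, and a change in the number of cells of a type and a change in RNA per cell cannot be told apart.

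An MHC class I molecule consists of a heavy chain, the light chain beta-2 microglobulin and a short peptide. Peptides cut from proteins of the cell by the proteasome are pumped into the endoplasmic reticulum by the Tap1-Tap2 transporter, loaded onto the heavy chain with the help of tapasin, and shown at the surface to CD8+ T cells. Most nucleated cells make the classical molecules at a steady level, and interferons and NF-kB raise transcription of the heavy chain and B2m genes. Non-classical molecules are more restricted: the product of H2-T23, Qa-1, is read by a natural killer and T cell receptor, and the product of H2-M3 binds peptides that start with formyl-methionine.

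Stretches of 4 promoters are shown, each with a kB motif and an IRF core close together. The order is the same in H2-K1, H2-Q4 and H2-M3 and reversed in B2m. A stretch of H2-D1 also holds this pair, but it overlaps an exon of the gene and is not shown. The shown stretches are the RefSeq sequences on GRCm38.p6, 5′ to 3′ on the strand of the gene. Capitals mark a kB motif for NF-kB and an IRF core for interferon regulatory factors. H2-K1 is from chr17:34000349-34000468 (minus strand), B2m from chr2:122147540-122147659 (plus strand), H2-Q4 from chr17:35379434-35379553 (plus strand) and H2-M3 from chr17:37270098-37270217 (plus strand).
H2-K1: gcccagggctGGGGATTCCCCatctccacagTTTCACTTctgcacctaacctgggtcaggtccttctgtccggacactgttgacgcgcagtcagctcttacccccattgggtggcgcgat
H2-Q4: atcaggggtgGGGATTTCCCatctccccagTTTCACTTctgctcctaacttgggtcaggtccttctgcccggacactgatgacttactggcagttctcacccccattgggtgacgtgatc
H2-M3: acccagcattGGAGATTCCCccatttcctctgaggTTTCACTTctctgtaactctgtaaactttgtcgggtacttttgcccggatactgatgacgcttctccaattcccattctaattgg
B2m: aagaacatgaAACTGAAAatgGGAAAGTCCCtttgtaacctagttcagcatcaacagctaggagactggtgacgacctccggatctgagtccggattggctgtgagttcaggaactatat

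The motifs searched on both strands were the NF-kB consensus (kB, which begins with GGGA and ends with CC), AANNGAAA (IRF core), TGACG (the core of a cAMP response element) and CCAAT (the CCAAT box). The window ran from 250 bases before to 50 bases after the RefSeq start. A kB motif was found in 5 of the 6 windows and in 4.16% of 32851 windows of all genes. An IRF core was found in 6 of 6, against 23.9% of all windows. TGACG stood in 5 of 6 windows against 20.8%, and CCAAT in 6 of 6 against 37.4%. H2-T23 was the gene without a kB motif and without TGACG.

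A kB motif followed within 20 bases by an IRF core was present in 4 of the 6 windows (H2-K1, H2-D1, H2-Q4 and H2-M3), against 0.0791% of all windows. Among the 7 other tested heavy chain genes with a RefSeq window, 3 held this pair and 3 held a kB motif, in both cases H2-Q6, H2-Q7 and H2-T22. In H2-K1 the kB motif lies at -111 and the IRF core at -90, and in H2-D1 the same pair lies at -171 and -150. Both kB motifs match on either strand in copies offset by 1 base. In H2-Q4 the pair lies at -173 and -153, and in H2-M3 at -126 and -101. In H2-M3 a CCAAT box overlaps the kB motif, and both match on the strand opposite to the gene. B2m has the reverse order, with the IRF core at -137 and the kB motif at -126. The heavy chain genes are relatives, so their windows are not independent: the matching stretches of H2-K1 and H2-D1 share 108 of 120 bases (90.0%). A match describes letters and is not evidence of binding. Of the genes that did not pass the test, H2-D1 holds all 4 motifs and H2-T23 holds the IRF core and CCAAT.

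Library totals were 40451075 to 89624373 counts, with a mean of 70820780. Levels are given as CPM, each count relative to the total of its library after TMM scaling (the trimmed mean of M values), for mice 1 to 4 of each group. A gene was called when edgeR's two-sided quasi-likelihood test gave an adjusted p (Benjamini-Hochberg) below 0.05. Of 16512 tested genes, 2.43% were called higher in A20KIKO and 1.06% lower. The Tnfaip3 count was higher in A20KIKO, 74.0 ± 17.3 CPM against 16.5 ± 2.65 (SD, n = 4). A count over the whole gene does not test the deletion. One library, A20KIKO mouse 4, stood apart in a list of neutrophil genes led by S100a8 and S100a9, at a summed 2931 CPM where the other 7 libraries lay between 5.55 and 61.0. Counts of called genes without it are given as well.

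The classical heavy chain gene H2-K1 (ENSMUSG00000061232, chromosome 17, 33996017 to 34000347, minus strand, GRCm38) encodes a molecule that presents peptides to CD8+ T cells. Its level was 2071, 1363, 1777 and 2188 CPM in A20KIKO mice 1 to 4 and 1117, 884, 1087 and 1232 CPM in A20WT mice 1 to 4. All 4 A20KIKO libraries lay above all 4 A20WT libraries. H2-K1 rose from 1080 ± 145 to 1850 ± 368 CPM (SD, n = 4), a log2 change of 0.78 (SE 0.16, adjusted p = 0.0207). The call was lost, at an adjusted p of 0.0528 to 0.0845, without A20KIKO mouse 1 or 4, or without A20WT mouse 2 or 3.

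H2-D1 (ENSMUSG00000073411, chromosome 17, 35262730 to 35267499, plus strand) encodes the other classical heavy chain of this list. Its level was 3264, 2283, 2599 and 3551 CPM in A20KIKO mice 1 to 4 and 2069, 1549, 1978 and 2345 CPM in A20WT mice 1 to 4. The groups overlapped, since A20KIKO mouse 2 lay below A20WT mouse 4. The means were 2924 ± 584 and 1985 ± 330 CPM (SD, n = 4), with a log2 change of 0.56 (SE 0.17, adjusted p = 0.116), which did not pass the test. With A20KIKO mouse 4 left out the log2 change was 0.45 (adjusted p = 0.264).

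B2m (ENSMUSG00000060802, chromosome 2, 122147686 to 122153083, plus strand) encodes the light chain that every one of these heavy chains needs to reach the surface. Its level was 1252, 689, 746 and 1110 CPM in A20KIKO mice 1 to 4 and 466, 350, 489 and 425 CPM in A20WT mice 1 to 4. The lowest A20KIKO library was 1.41 times the highest A20WT library. B2m rose from 433 ± 61.1 to 949 ± 275 CPM (SD, n = 4), a log2 change of 1.13 (SE 0.20, adjusted p = 0.00652). The spread among A20KIKO mice was 28.9% of the mean and the widest of the 6 genes in that group. The call held with each library left out in turn.

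H2-Q4 (ENSMUSG00000035929, chromosome 17, 35379617 to 35385290, plus strand) is a heavy chain gene of the Q region. Its level was 5.23, 3.43, 4.98 and 5.07 CPM in A20KIKO mice 1 to 4 and 2.29, 1.93, 2.27 and 1.61 CPM in A20WT mice 1 to 4. The groups did not overlap, and the lowest A20KIKO library was 1.49 times the highest A20WT library. H2-Q4 rose from 2.03 ± 0.322 to 4.67 ± 0.838 CPM (SD, n = 4), a log2 change of 1.20 (SE 0.21, adjusted p = 0.00795). It was also called with each library left out.

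H2-T23 (ENSMUSG00000067212, chromosome 17, 36029773 to 36032855, minus strand) encodes Qa-1. Its level was 342, 223, 228 and 333 CPM in A20KIKO mice 1 to 4 and 220, 162, 184 and 189 CPM in A20WT mice 1 to 4. The groups did not overlap, but A20KIKO mouse 2 was only 1.01 times A20WT mouse 1. The means were 281 ± 64.8 and 189 ± 23.6 CPM (SD, n = 4), and the log2 change of 0.58 (SE 0.16, adjusted p = 0.0844) did not pass the test. Without A20KIKO mouse 2 it did, at an adjusted p of 0.0469, and without A20KIKO mouse 4 it did not (0.49, adjusted p = 0.206).

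H2-M3 (ENSMUSG00000016206, chromosome 17, 37270220 to 37274484, plus strand) encodes the molecule that presents formylated peptides. Its level was 17.7, 9.93, 13.04 and 18.4 CPM in A20KIKO mice 1 to 4 and 9.35, 5.89, 7.52 and 7.58 CPM in A20WT mice 1 to 4. The groups did not overlap, with A20KIKO mouse 2 at 1.06 times A20WT mouse 1. H2-M3 rose from 7.58 ± 1.41 to 14.8 ± 4.01 CPM (SD, n = 4), a log2 change of 0.96 (SE 0.21, adjusted p = 0.0237). The adjusted p was 0.0588 to 0.0951 without A20KIKO mouse 1 or 4, or without A20WT mouse 2, 3 or 4.

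**Figure D1:**
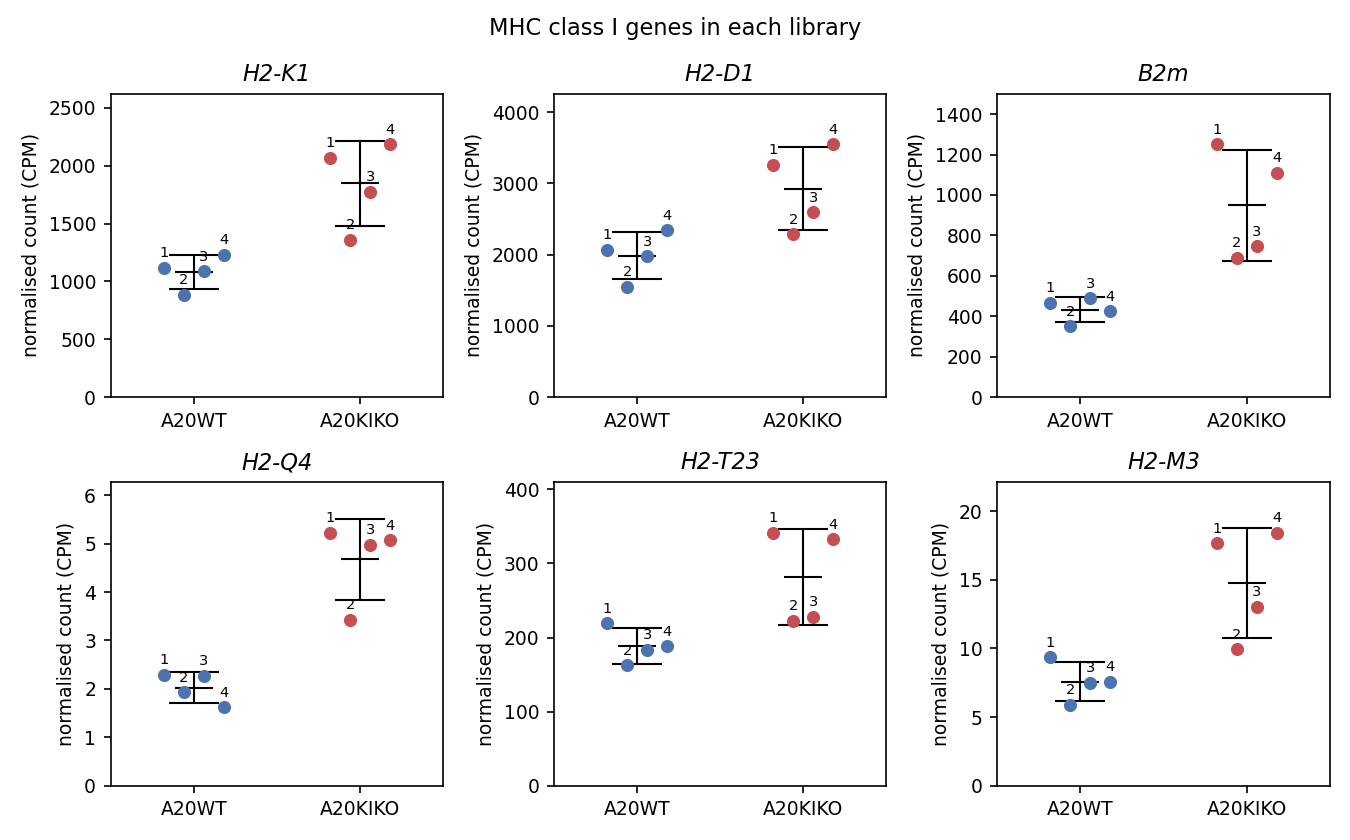
Normalised counts (CPM, linear axes from 0) of the 6 class I genes in each library, with points numbered by mouse and bars for the mean ± SD of 4 mice per group. A20KIKO mouse 2 is the lowest of its group in all 6 panels, and the groups overlap for H2-D1, where that mouse (2283 CPM) lies below A20WT mouse 4 (2345 CPM).

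Thus 4 of the 6 genes were called higher and 0 lower, against 2.43% and 1.06% of all tested genes. The groups did not overlap for 5 of the 6, where 5.78% of all tested genes had every A20KIKO library above every A20WT library. The median log2 change of the 6 was 0.87, and that of all tested genes was -0.00621. With A20KIKO mouse 4 left out, 2 genes were called higher (B2m and H2-Q4), against 2.08% of all genes tested. The number was also 2 with A20KIKO mouse 1 left out (1.55% of all genes), with A20WT mouse 2 left out (1.84%) and with A20WT mouse 3 left out (1.54%). It was 5 with A20KIKO mouse 2 left out (2.59%).

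The call also depended on the tool and the threshold. DESeq2 called all 6 genes higher, and 4.41% of all genes. With no count filter edgeR called 5 higher (1.61% of all genes), and with a strict filter, which removed H2-Q4, it called 3 (2.41%). At an adjusted p under 0.01, 2 were called (1.15%), and in a test against a 1.5-fold change 0 were called (1.06%).

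Within A20KIKO, the mice were ordered alike across the genes. Mouse 2 was lowest and mice 1 and 4 were the upper pair for all 6 genes. In A20WT the mouse numbered 2 was lowest for 5 of the 6, and the order of the numbers was the same in both groups for 3 genes (H2-K1, H2-D1 and H2-T23). Tnfaip3 had the same lowest mouse in A20KIKO, with 90.9, 55.0, 64.0 and 86.2 CPM in mice 1 to 4. In A20WT the order differed, with 13.5, 19.6, 17.7 and 15.4 CPM in mice 1 to 4, and mouse 2 was the highest. Mice 1 and 4 also had the largest A20KIKO libraries (86290868 and 89106039 counts). The smallest was that of mouse 3 (40451075 counts), not that of mouse 2 (58156350 counts). The part of depth in the order of the mice was not tested. With every library thinned to the smallest, 4 of the 6 genes were still called higher, against 2.61% of all genes tested.

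Over all 8 libraries, deviations from the group means moved together most closely for H2-K1 and H2-D1 (Pearson r = 0.97, 8 libraries) and least for H2-D1 and H2-Q4 (r = 0.37). These values share libraries and scaling and are a description.

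The genes differ widely in level. Scaled to exon length, H2-D1 was the highest of the 6 in A20WT at 770 ± 128 CPM per kb (SD, n = 4), followed by B2m at 503 ± 71.1 and H2-K1 at 368 ± 49.3. H2-D1 ranked 43rd, B2m 82nd and H2-K1 116th of 16488 genes with a length. H2-T23 stood at 65.3 ± 8.18, H2-M3 at 5.27 ± 0.981 and H2-Q4 at 0.781 ± 0.124 CPM per kb. The intervals of mean ± SD of neighbours in this order did not overlap.

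In A20KIKO the order was the same, but the means of the top pair lay closer. H2-D1 stood at 1134 ± 227 and B2m at 1104 ± 319 CPM per kb, which did not differ beyond their spread, at ranks 26 and 27. H2-K1 followed at 630 ± 125 (rank 56), H2-T23 at 97.3 ± 22.4, H2-M3 at 10.27 ± 2.79 and H2-Q4 at 1.80 ± 0.323.

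**Figure D2:**
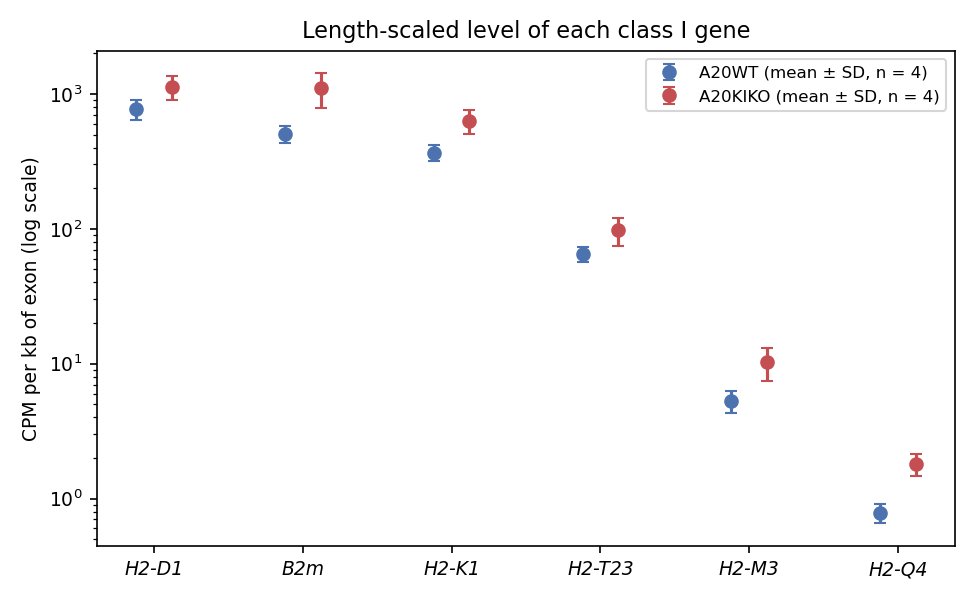
Length-scaled level (CPM per kb of annotated exon, log axis) of the 6 class I genes, as the mean ± SD of 4 A20WT or 4 A20KIKO libraries, ordered by the A20WT level. H2-D1 and B2m stand at 770 and 503 CPM per kb in A20WT and at 1134 and 1104 in A20KIKO.

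Whether the genes changed by different amounts was asked for all 15 pairs, with an exact two-sided permutation test of the log2 ratio over the 8 libraries. The smallest p that 70 splits allow is 0.0286, and 7 pairs reached it, each with groups that did not overlap. After adjustment over the 15 pairs their p was 0.0612, so 0 pairs passed. These pairs already had the smallest p and could pass only if more pairs had reached it. The 0 therefore does not show that the genes changed by equal amounts. The 4 differences of the 7 that were largest in size were H2-D1 against H2-Q4 (-0.64 on the log2 scale), H2-Q4 against H2-T23 (0.64), H2-D1 against B2m (-0.55) and B2m against H2-T23 (0.54).

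Reads of paralogous heavy chain genes could be assigned to the wrong gene or left uncounted. The coding sequences of H2-K1 and H2-D1 were 91.5% identical, those of H2-D1 and H2-Q4 90.6%, and those of H2-K1 and H2-M3 73.8%. Nevertheless, stretches of 150 bases, the length of 1 read, were mostly unique in the GENCODE M21 transcripts. No such stretch of H2-K1, H2-M3 or B2m occurred in the transcript of another gene. The share was 1.35% for H2-D1 (with H2-Q1) and 0.331% for H2-T23 (with Gm7030).

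H2-Q4 was the exception among the 6, with 9.87% of its stretches in Gm11131. This is an antisense gene whose exons overlap those of H2-Q4, and a library without strand cannot divide them. Gm11131 was counted at 0.378 to 1.54 CPM over the 8 libraries. With stretches of 75 bases the shares were 20.7% for H2-Q4, 5.91% for H2-T23, 5.56% for H2-D1 and 3.10% for H2-K1. At 2.03 CPM in A20WT and 4.67 in A20KIKO, H2-Q4 lay far below H2-Q7 (48.4 and 155 CPM). The coding sequences of H2-Q4 and H2-Q7 were 90.8% identical. The separate value of H2-Q4 is therefore uncertain. The reference is that of C57BL/6J mice. The strain and H2 haplotype of these mice are not stated in the labels, and an effect of mismatched alleles on the counts was not tested.

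A sum over 24 protein-coding heavy chain genes does not depend on how reads were divided among these 24. The sum leaves out H2-K2, H2-Q5 and H2-T10, which are not annotated as protein-coding genes in GENCODE M21. It can still change with reads left uncounted or shared with genes outside it, such as Gm11131 and Gm7030. It was 6366, 4184, 5090 and 6718 CPM in A20KIKO mice 1 to 4 and 2782 to 3999 CPM in A20WT, so the groups did not overlap. The means were 5590 ± 1169 and 3463 ± 508 CPM (SD, n = 4). The log2 change was 0.69 (SE 0.17), and its adjusted p of 0.0511 in the quasi-likelihood fit missed the threshold. Without A20KIKO mouse 2 the sum was called (0.81, adjusted p = 0.023), and without A20KIKO mouse 4 it was not (0.59, adjusted p = 0.123). The 5 listed heavy chain genes alone summed to a log2 change of 0.64 (adjusted p = 0.0673).

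H2-K1 and H2-D1 made up most of this sum, 88.4% ± 0.825 in A20WT and 85.6% ± 1.39 in A20KIKO (SD, n = 4). The share of H2-D1 was 57.2% ± 1.22 in A20WT and 52.4% ± 1.63 in A20KIKO, and that of H2-K1 was 31.2% ± 0.446 and 33.1% ± 1.18. The shares of H2-Q7 (1.38% ± 0.179 and 2.68% ± 0.719), H2-Q6 (0.944% ± 0.149 and 1.71% ± 0.333) and H2-T22 (2.35% ± 0.311 and 3.27% ± 0.288) were larger in A20KIKO in the order given. The level of B2m per kb over that of the heavy chain sum was 0.395 ± 0.0457 in A20WT and 0.532 ± 0.0655 in A20KIKO (SD, n = 4), with ranges of 0.334 to 0.444 and 0.464 to 0.622. These shares and ratios are descriptions and had no test.

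Among the other class I heavy chain genes, 23 of 30 listed were in the tables and 12 passed the count filter. Of these 12, 9 were called higher and 0 lower, against 2.43% and 1.06% of all tested genes. The median log2 change of the 12 was 1.32. Among the 9, H2-K2, H2-Q5 and H2-T10 are not annotated as protein-coding genes in GENCODE M21. In the Q region, 4 genes rose: H2-Q5 (1.71, SE 0.21, adjusted p = 0.00136), H2-Q6 (1.59, SE 0.22, adjusted p = 0.00227), H2-Q7 (1.68, SE 0.35, adjusted p = 0.0361) and H2-Q2 (2.58, SE 0.53, adjusted p = 0.0186). The products of H2-Q6 and H2-Q7 are known as Qa-2. H2-Q6 was among the most abundant of them, at 97.2 ± 30.9 CPM against 32.3 ± 3.82 (SD, n = 4), while H2-Q2 averaged 0.400 against 0.0673 CPM. Of the stretches of 150 bases, 3.86% for H2-Q5, 5.99% for H2-Q6, 5.90% for H2-Q7 and 2.56% for H2-Q2 were shared. With 75 bases the shares were 21.2%, 21.1%, 17.0% and 8.07% in the same order. The coding sequences of H2-Q6 and H2-Q7 were 95.4% identical. Separate values of these Q region genes are therefore uncertain.

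In the T region, H2-T22 rose from 80.4 ± 2.93 to 185 ± 50.5 CPM (SD, n = 4, log2 change 1.20, adjusted p = 0.0023). H2-T10 (1.39, adjusted p = 0.0203) and H2-T24 (1.25, adjusted p = 0.0188) also rose. Products of H2-T10 and H2-T22 bind B2m without a peptide and are ligands of some gamma-delta T cell receptors. Of the stretches of 150 bases, 22.3% for H2-T22 and 20.9% for H2-T10 were shared, mostly with A930015D03Rik and BC023719 respectively, so their separate values are uncertain.

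H2-M2 (1.08, adjusted p = 0.0165) and H2-K2 (0.94, adjusted p = 0.0295) rose as well. H2-Q1 (0.78, adjusted p = 0.449), H2-Q10 (2.61, adjusted p = 0.148) and H2-M5 (0.20, adjusted p = 0.592) did not pass the test. The number called was 4 without A20KIKO mouse 1 (1.55% of all genes called higher) and without A20KIKO mouse 4 (2.08%). H2-Q5, H2-Q6 and H2-T22 were called with each library left out. The count was 0 in all 8 libraries for 8 listed genes: H2-T3, H2-M1, H2-M9, H2-M10.1, H2-M10.3, H2-M10.4, H2-M10.5 and H2-M11.

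**Figure D3:**
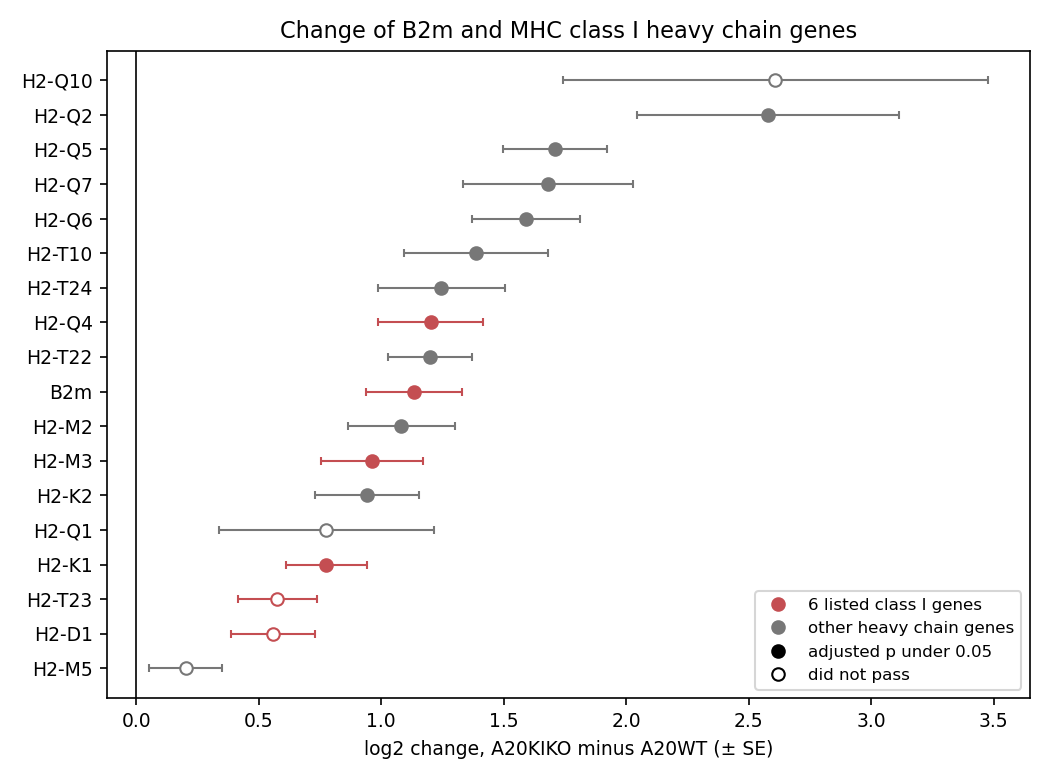
Log2 change (A20KIKO minus A20WT, ± SE) of the 6 listed class I genes in red and the 12 other tested heavy chain genes in grey, with filled points for an adjusted p under 0.05. H2-D1 (0.56) and H2-T23 (0.58) are open, and all 18 changes are above 0.

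Genes that supply and load peptides were counted from lists. For comparison with this list and those below, 2.43% of all tested genes were called higher and 1.06% lower. Of 11 genes of peptide loading, 5 were called higher and 0 lower, with a median log2 change of 0.47. Tap1, a subunit of the peptide transporter, rose from 111 ± 9.39 to 251 ± 42.5 CPM (SD, n = 4, log2 change 1.17, adjusted p = 0.000924). Its partner Tap2 rose by a log2 change of 1.10 (adjusted p = 0.00204), and Tapbp, the gene for tapasin, by 1.06 (adjusted p = 0.00183). All 3 were called with each library left out.

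Of 5 genes of the immunoproteasome and its PA28 activator, 4 were called higher, with a median of 1.48. The catalytic subunit genes Psmb8 (1.74, SE 0.29, adjusted p = 0.00818), Psmb9 (1.48, SE 0.22, adjusted p = 0.00272) and Psmb10 (1.56, SE 0.24, adjusted p = 0.00513) rose. The count fell to 2 without A20WT mouse 2, where 1.84% of all genes were called higher. Their constitutive counterparts gave 0 calls of 3: Psmb6 was at 394 ± 46.1 and 392 ± 90.5 CPM (adjusted p = 0.991), and Psmb5 at 151 ± 61.8 and 136 ± 82.3 CPM (adjusted p = 0.939), in A20KIKO and A20WT (SD, n = 4).

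Of 17 genes that regulate class I transcription, 6 were called higher and 0 lower, with a median of 0.27. Irf1, a transcription factor that binds interferon response elements, rose from 15.7 ± 3.46 to 60.3 ± 15.9 CPM (SD, n = 4, log2 change 1.95, adjusted p = 0.00058). Irf9, the DNA-binding subunit of an interferon-activated transcription complex, rose by 1.43 (adjusted p = 0.000592). Relb, a subunit of NF-kB, rose by 0.90 (adjusted p = 0.00107). Stat2, a signal transducer of type I interferon (1.68, adjusted p = 0.00184), and Nlrc5, a coactivator of class I genes (0.80, adjusted p = 0.0383), were also called and were named after their values were seen. The adjusted p of Nlrc5 was 0.0564 to 0.135 without A20KIKO mouse 1 or 4, or without A20WT mouse 3 or 4.

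Molecules related to class I were counted next. Of 8 tested B2m partners and class I relatives, 1 was called: Mill1, an MHC class I-like gene, rose from 29.7 ± 5.59 to 56.1 ± 13.5 CPM (SD, n = 4, log2 change 0.92, adjusted p = 0.0164), and the adjusted p was 0.0631 without A20KIKO mouse 1. The ligands of NKG2D, an activating receptor of natural killer and T cells, gave 0 calls of 2. H60c, which epidermis is known to express, was at 46.1 ± 3.21 CPM in A20KIKO and 50.9 ± 6.83 in A20WT (SD, n = 4, adjusted p = 0.657). Receptors of class I molecules on lymphocytes and myeloid cells gave 0 calls of 7. Klrk1, the gene for NKG2D, was at 5.75 ± 1.40 and 5.48 ± 0.757 CPM (SD, n = 4, adjusted p = 0.926) in A20KIKO and A20WT.

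MHC class II, which professional antigen-presenting cells such as Langerhans cells use to present peptides to CD4+ T cells, gave 0 calls of 10 tested genes, with a median log2 change of 0.17. Cd74, the invariant chain, was at 1269 ± 39.4 CPM in A20KIKO and 1161 ± 99.2 in A20WT (SD, n = 4, adjusted p = 0.668). H2-Ab1 was at 755 ± 40.3 and 677 ± 96.1 CPM (adjusted p = 0.631). The sum of 9 class II genes was 1499 ± 81.5 CPM in A20KIKO and 1351 ± 171 in A20WT.

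The ratio of the heavy chain sum to this class II sum was compared after the data were seen. Its log2 was 1.88 ± 0.258 in A20KIKO and 1.35 ± 0.0740 in A20WT (SD, n = 4). The difference of 0.52 had a p of 0.0286 in an exact two-sided permutation test, the smallest that 4 against 4 libraries can give, with the lowest A20KIKO value at 1.55 and the highest A20WT value at 1.42.

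**Figure D4:**
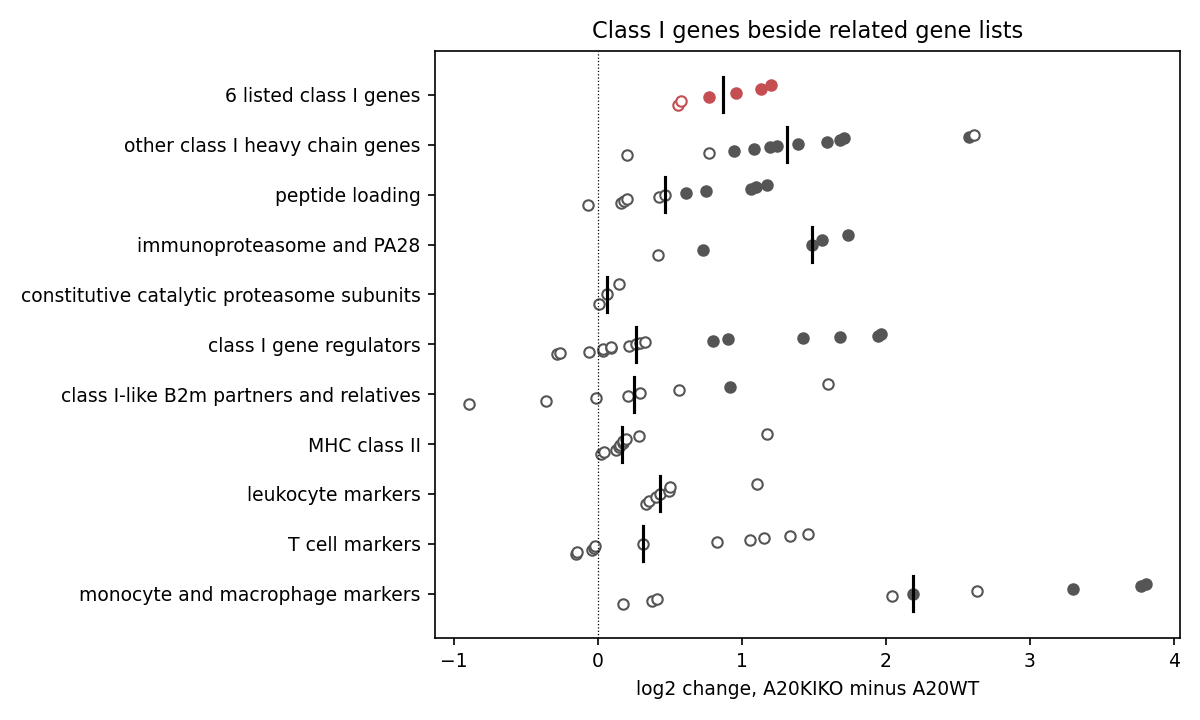
Log2 change (A20KIKO minus A20WT) of the 6 listed class I genes and of the tested genes of 10 related or cell type lists, 1 point per gene, filled for an adjusted p under 0.05, with a bar at the median of each list. The medians are 0.87 for the 6 genes, 1.48 for the immunoproteasome, 0.06 for its constitutive counterparts and 0.17 for MHC class II.

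Markers of the cells in the sheet were read beside these results. Of 10 keratinocyte markers 0 were called higher and 1 lower: Krt5, whose promoter drives the Cre, fell from 6227 ± 575 to 3512 ± 133 CPM (SD, n = 4, log2 change -0.83, adjusted p = 0.00272). Leukocyte markers gave 0 calls of 7, with a median of 0.43 and summed levels of 217 to 362 CPM in A20KIKO and 162 to 245 in A20WT. T cell markers gave 0 calls of 11, with sums of 160 to 174 and 142 to 181 CPM. Langerhans cell markers gave 1 call of 10, the costimulatory gene Cd86 (0.95, adjusted p = 0.0188). This call was lost without A20KIKO mouse 1 or 4 or without A20WT mouse 3 (adjusted p = 0.0575 to 0.0790). The sums of the Langerhans cell list were 3224 to 3561 and 2653 to 3513 CPM.

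Monocyte and macrophage markers gave 4 calls of 9, all higher, against 2.43% of all tested genes, and a median of 2.19. The complement genes C1qa (2.19, adjusted p = 0.00184), C1qb (3.77, adjusted p = 0.00227) and C1qc (3.30, adjusted p = 0.00272) rose, and so did Ly6c2, the remaining call. The summed level of the whole list was 106 to 152 CPM in A20KIKO and 60.4 to 105 CPM in A20WT, of which Csf1r, a gene that Langerhans cells also express and that was not called, made 72.8 to 88.4 and 39.5 to 77.9 CPM. The 4 called genes summed to 8.03 to 32.5 CPM in A20KIKO and 1.87 to 3.32 CPM in A20WT, against 4184 to 6718 and 2782 to 3999 CPM for the heavy chain sum. Marker levels do not give the amount of class I RNA in the cells they mark. The part of these cells in the class I results was not tested.

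Of the remaining cell type lists 0 genes were called in edgeR over all 8 libraries: neutrophil (3 tested), B cell (1), endothelial (2), fibroblast (4) and melanocyte (4). Without A20KIKO mouse 4, all 4 melanocyte markers were called higher, against 2.08% of all genes tested. These were Dct (1.58, adjusted p = 0.0053), Pmel (1.31, adjusted p = 0.0174), Tyrp1 (1.99, adjusted p = 0.00239) and Mlana (1.76, adjusted p = 0.0234). DESeq2 over all 8 libraries called 2 of them higher, and 4.41% of all genes. Of the fibroblast markers, 2 were called lower without A20KIKO mouse 2 (1.03% of all genes) and 2 without A20KIKO mouse 3 (0.642%). In both cases these were the collagen genes Col1a2 and Col3a1. Summed levels in A20KIKO and A20WT were 22.8 to 2931 and 5.55 to 38.4 CPM for neutrophil, 14.9 to 35.7 and 39.2 to 54.0 CPM for fibroblast, and 43.6 to 209 and 38.6 to 52.4 CPM for melanocyte markers. B cell and endothelial sums did not exceed 2.19 CPM in any library. Their part in the class I results was not tested.

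Without A20KIKO mouse 4, the genes called higher numbered 4 of 11 for peptide loading, 3 of 5 for the immunoproteasome and PA28, 5 of 17 for the regulators and 0 of 10 for Langerhans cell markers. MHC class II stayed at 0 of 10, and the monocyte and macrophage markers at 4 of 9. Of all genes tested, 2.08% were called higher in this fit.

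The genes whose level followed the 6 most closely were found by Pearson correlation with the mean z-score of the 6 over the 8 libraries, among the 10324 genes that averaged 5 CPM or more. Outside the class I family these were Psmb9 (r = 0.992), Psmb8 (0.982), Slfn2 (0.981), Ifi35 (0.979) and Zbp1 (0.979). Psmb9 and Psmb8 are the immunoproteasome genes described above, and Ifi35 and Zbp1 are known as interferon-induced. With the group difference removed, the closest were Eif1ax (0.984), Psmb9 (0.981), 9130008F23Rik (0.975), Psmd12 (0.968) and Ywhae (0.961), of which Psmb9 alone was called between the groups. These correlations share libraries, depth and scaling, were picked as the highest of 10324, and are descriptions.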

How the data were processed

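The authors deposited raw counts for each Ensembl gene, with 2 lane columns per library and 8 libraries, and all 830592 values are whole numbers. The labels' protocols give poly-adenylated RNA, SMART-Seq v4 cDNA amplified by PCR, Nextera libraries and paired reads of 150 bases, without strand or molecular identifiers. Per the submitters' processing notes the builds were GRCm38.p5 and GRCh38, and the tools HTSeq 0.6.1p1, Picard 1.139 and STAR 2.4.2a. For the annotation and counting options: not given in the sources used here.

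Lanes were summed, and groups were taken from the labels. Symbols matched 51633 of 51912 identifiers, and positions matched 51719 in GENCODE M21 (GRCm38). In R 4.3.3, edgeR 4.0.16 was run with filterByExpr (minimum count 10, total 15; 16512 genes kept), TMM, robust quasi-likelihood dispersions and the group as the only term. Fold changes and SE come from this fit, the SE being the log2 change over the square root of F. The heavy chain sum entered the same fit in place of its genes. The steps were tested on simulated data. Alternatives were DESeq2 1.42.0, limma-voom (limma 3.58.1), other scalings and filters, single lanes, thinned counts, a replicate block and leaving out each library. Pair ratios used a pseudocount of 0.5 counts. Correlations used log2 CPM with a prior count of 2. Python 3.11.15, pandas 2.3.3, NumPy 2.4.6, SciPy 1.17.1 and Matplotlib 3.10.9 did the rest.

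The members, lists and alternatives were chosen with earlier results of these data known. Apart from the 6 genes, Tnfaip3 and the tested heavy chain genes, each list names up to 3 called genes with the smallest adjusted p, or up to 2 with the highest mean, plus the 5 genes most like the 6 in each correlation. Printed p-values measure the spread between mice. PCR copies cannot be told from molecules, so floors cover counting error only. One gene of the lists is counted but not reported by name here.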

Additional observations from a re-analysis of the deposited data

Results flagged for a closer look

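In 38 groups of 4 libraries, the lowest or highest value was checked for a gap to its neighbour. The gap was set against the range of the group on a log scale, and 3 large gaps were found. Chance flags about 1 in 20 groups. A20KIKO mouse 2 lay below the other 3 A20KIKO mice for H2-Q4, at 3.43 CPM against 4.98 to 5.23, and for H2-Q6, at 52.0 CPM against 103 to 117. A20WT mouse 4 had 0.0 CPM of H2-Q10, a count of 0 where the other A20WT libraries held 7 to 13. A count of 0 allows up to 3 counts, or 0.0466 CPM, in that library. A20KIKO mouse 4 had 1.62 CPM of H2-Q10 against 0.147 to 0.316 in the other 3 A20KIKO mice, and was not flagged on the log scale.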

How the results depend on the processing

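The log2 change of each of the 6 genes and of the heavy chain sum was above 0 under every alternative run. Of the 6 genes, 2 were called at an adjusted p under 0.01 and 0 in a test against a 1.5-fold change. The number was 6 with DESeq2, 5 without a count filter, 3 with a strict filter (at least 5 CPM in 4 libraries, which removed H2-Q4), and 2 to 5 with each library left out. Under other scalings, limma-voom, single lanes and thinned counts 4 genes were called, against 2.2% to 2.61% of all genes tested. H2-D1 was called with DESeq2 (adjusted p = 0.026) and with the replicate block. The heavy chain sum passed the threshold with library totals as scaling (0.68), without a count filter (0.69), with DESeq2 (0.69), in lane 1 alone (0.69) and with the replicate block (0.68), and ranged from 0.59 to 0.81 with each library left out. The cause of these shifts was not tested.

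Mouse numbers are shared by the groups, and the labels do not state whether they pair the mice. Residual correlations of same-numbered mice were -0.0142 to 0.237, above 0.1 in 1 of 4 pairs. Of 8 libraries, 3 correlated best with their own number. These values do not settle whether the mice were paired. The fit with the replicate block called 6 of the 6 genes higher, and 2.41% of all genes.

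The number of gene pairs that passed the test of different changes was 0 in lane 1 and in lane 2 alone, where the same limit holds. With a library left out no pair could pass, since 4 against 3 libraries allow no p under 0.0571. The H2-D1 minus H2-T23 difference, near 0, changed sign in lane 1 alone (0.0028) and in 4 of the fits with each library left out (-0.0543 to 0.0794). B2m minus H2-Q4 did so in 2 of them (-0.187 to 0.0387). The log2 ratio of class I to class II, added after the data were seen, differed by 0.427 to 0.629 with each library left out, at p = 0.0571 in exact permutation tests, the smallest that 4 against 3 libraries can give.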
